A study of Homo sapiens with 4 samples.

Results

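RN7SL1, RN7SL2, RN7SK, RMRP and RPPH1 are 5 human genes for structural RNAs made by RNA polymerase III (Pol III), and they were chosen by their measured values, since they held the largest part of the expression total in every library examined. They are 5 of 39323 genes listed. The libraries came from RD and JR1 cells, established lines of fusion-negative rhabdomyosarcoma, a childhood tumor of the skeletal muscle lineage without a PAX-FOXO1 fusion. In each line, cells infected with a pLKO.1-puro lentivirus expressing an shRNA against SKP2 (shSKP2) were compared with cells carrying the same vector with a non-targeting shRNA (shSCR), labelled wild type, and both were selected with puromycin in medium with serum, so that no library came from untransduced cells. SKP2 is the substrate-recognition subunit of a ubiquitin ligase that promotes entry into S phase, and the study asked how its depletion altered differentiation, senescence and growth. The 4 libraries, 1 per line and shRNA, were selected for poly-A RNA and quantified as TPM, the share of each transcript among all transcripts, scaled to a sum of 1e+06 in each library. With 1 library per line and shRNA no difference within a line had a replicate check. No test was run over both lines, since the RNAs were chosen on these same values, so no p-value is given, and the depth of the libraries is unknown because TPM keep no read counts.

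SKP2 itself was at 92.8 TPM with shSCR against 7.40 with shSKP2 in RD, and at 46.5 against 2.72 TPM in JR1. Of the muscle-lineage genes checked, MYOD1 was at 87.0 to 131 TPM, MYOG at 31.6 to 107, DES at 36.0 to 51.3 and CHRNA1 at 196 to 425 TPM, MYMK was at 1.22 to 18.9 TPM, and MYF5 was listed at 0 in every library. The markers of leukocytes (PTPRC), endothelium (PECAM1) and epithelium (EPCAM) did not exceed 0.16 TPM, DCN of fibroblasts did not exceed 0.06 TPM, LUM reached 3.46 TPM in JR1 shSCR and the epithelial keratin KRT8 was at 3.04 to 9.06 TPM.

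Pol III transcribes short, untranslated RNAs of high abundance, among them transfer RNAs, 5S ribosomal RNA and the RNAs considered here. RN7SL1 and RN7SL2 encode 7SL RNA, the scaffold of the signal recognition particle (SRP), which halts translation of secretory and membrane proteins until the ribosome is docked at the endoplasmic reticulum. RN7SK encodes 7SK RNA, which is capped and held by MEPCE and LARP7 and, together with HEXIM proteins, keeps the elongation kinase P-TEFb (CDK9 with a cyclin T) inactive. RPPH1 encodes the catalytic RNA of RNase P, which trims the leader from precursor transfer RNAs, and RMRP encodes the related RNA of RNase MRP, which acts in ribosomal RNA processing and shares most of its proteins with RNase P. Pol III ends its transcripts at a run of T and adds no poly-A tail, so selection for poly-A would not be thought to enrich any of them.

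RN7SL1 and RN7SL2 are near-identical copies, which bears on every value given for either. In GRCh38, as given in the deposited tables, RN7SL1 lies at chr14:49586580-49586878 on the plus strand, RN7SL2 at chr14:49862551-49862849 on the minus strand, and RN7SL3, a further copy and no member of the group, at chr14:49853616-49853914 on the minus strand, 8637 bases from RN7SL2. Each spans 299 bases. A read is informative for its copy only where it covers a base at which the copies differ, and RSEM divides the other reads among them, so that the split between the copies is uncertain and the sum of RN7SL1 and RN7SL2 is the firmer value.

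The other 3 genes are single copies in the list. RN7SK spans 332 bases at chr6:52995620-52995951 on the plus strand, RMRP spans 268 bases at chr9:35657751-35658018 on the minus strand, and RPPH1 spans 341 bases at chr14:20343071-20343411 on the minus strand. These genes are driven by promoter elements that lie entirely before the transcript, including a TATA box, whereas 7SL genes use elements within the transcript as well. The 60 bases before the annotated start of each gene and of RN7SL1 are shown to let this difference be seen, with the letters TATAA or TATATA in capitals, at chr6:52995560-52995619 (plus strand) for RN7SK, chr9:35658019-35658078 (minus strand) for RMRP, chr14:20343412-20343471 (minus strand) for RPPH1 and chr14:49586520-49586579 (plus strand) for RN7SL1.
RN7SK upstream: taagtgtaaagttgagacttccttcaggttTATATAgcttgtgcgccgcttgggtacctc
RMRP upstream: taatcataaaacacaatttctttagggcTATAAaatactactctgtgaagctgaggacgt
RPPH1 upstream: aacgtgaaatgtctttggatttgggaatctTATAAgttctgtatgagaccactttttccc
RN7SL1 upstream: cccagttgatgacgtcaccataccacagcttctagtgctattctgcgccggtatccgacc
TATAA, searched on the strand of the gene over 100 bases, began 32 bases before RMRP and 30 bases before RPPH1. TATATA, a word added after the sequence had been seen, began 30 bases before RN7SK. Neither word was found before RN7SL1, RN7SL2 or RN7SL3. Of 35116 RefSeq promoters, 6.72% held TATAA and 1.65% held TATATA in the same window. The octamer ATTTGCAT, a site of the activator POU2F1, was found before RPPH1 alone, 97 bases from its start, and was in 0.365% of promoters, while its other strand ATGCAAAT was found before none of the 5 genes and in 0.353% of promoters. The longest run of A within any of the 5 RNAs was 4 bases, whereas the longest run had a median of 6 bases in 19701 canonical coding transcripts and exceeded 4 bases in 84.1% of them.

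The 5 RNAs were the 5 highest genes of each library. Together they held 56.3% of the TPM in RD shSCR, 66.5% in RD shSKP2, 63.9% in JR1 shSCR and 70.1% in JR1 shSKP2. The share was thus higher with shSKP2 in both lines, by 10.2 percentage points in RD and 6.19 in JR1, and was higher in JR1 than in RD with either shRNA. The next gene in every library was RNU2-1, the U2 spliceosomal RNA, at 2823 to 4700 TPM, and RMRP, the lowest of the 5, stood 4.70 to 6.50 times above it. TPM count molecules rather than bases, and weighting the TPM of tested genes by annotated length gave the 5 RNAs 14.1%, 19.6%, 18.3% and 22.4% in the same order of libraries, again higher with shSKP2 in each line.

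**Figure D1:**
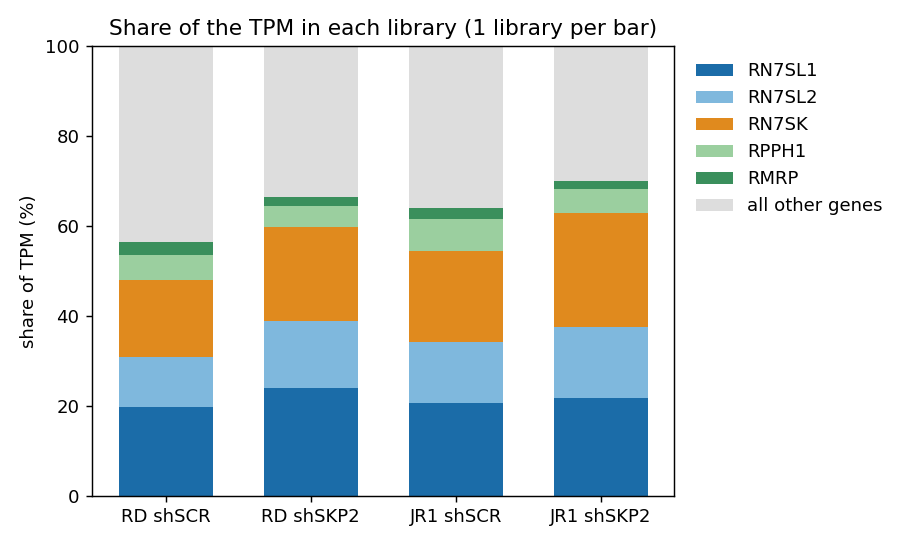
Stacked bars give the share of the TPM (%, vertical axis) held by each of the 5 Pol III RNAs and by all other genes in the 4 libraries (horizontal axis), 1 library per bar with no error bar. The 5 RNAs fill 56.3% of the RD shSCR bar and 70.1% of the JR1 shSKP2 bar.

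RN7SL1 was at 196610 TPM in RD shSCR, 238375 in RD shSKP2, 206815 in JR1 shSCR and 216178 in JR1 shSKP2. RN7SL2 was at 111037, 150332, 134629 and 158120 TPM in the same order. Both 7SL copies were therefore higher with shSKP2 within each line, with the larger difference in RD, where their summed level differed by 0.34 on the log2 scale against 0.13 in JR1. RN7SK was at 170825 TPM in RD shSCR, 208604 in RD shSKP2, 203514 in JR1 shSCR and 254369 in JR1 shSKP2, which placed it above RN7SL1 in the last of these libraries and below it in the other 3.

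The RNAs of the RNase P family were lower in level and had the opposite sign. RMRP was at 27628 TPM in RD shSCR, 21729 in RD shSKP2, 23281 in JR1 shSCR and 18353 in JR1 shSKP2. RPPH1 was at 57109, 46154, 70508 and 53645 TPM in that order. Each had its higher value with shSCR in both lines, and together they held 8.47% of the TPM in RD shSCR against 6.79% in RD shSKP2, and 9.38% in JR1 shSCR against 7.20% in JR1 shSKP2. RN7SL1, RN7SL2 and RN7SK together held 47.8% and 59.7% in RD and 54.5% and 62.9% in JR1, which is where the growth of the total share lay.

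Changes were expressed within a line as log2 of (TPM + 1) with shSKP2 over (TPM + 1) with shSCR. For RN7SL1 the change was 0.28 (RD) and 0.06 (JR1), for RN7SL2 0.44 and 0.23, and for RN7SK 0.29 and 0.32. For RMRP it was -0.35 and -0.34, and for RPPH1 -0.31 and -0.39. With the TPM as deposited, none of the 5 RNAs reached a change of 1 in either direction, the limit used to call a gene. Among the 12985 tested genes (those averaging 1 TPM or more across libraries) 1.08% were called up and 7.37% down in RD, and 1.78% up and 9.05% down in JR1. With shares this low, the lack of a call among 5 genes lies near the background and is no sign of unusual stability. The fold of RN7SK was 1.22 in RD and 1.25 in JR1, and that of RPPH1 was 0.808 and 0.761.

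These RNAs hold much of a total that is fixed, so a higher share for them goes with a lower share for all other genes. Which of the parts changed in amount cannot be told from TPM. The TPM of all other genes summed to 43.7% in RD shSCR and 33.5% in RD shSKP2, a log2 difference of -0.38, and to 36.1% and 29.9% in JR1, a difference of -0.27. Across the tested genes the change had a median of -0.27 (RD) and -0.21 (JR1), and 75.0% and 68.9% of them were lower with shSKP2. Relative to these medians the changes were 0.55 and 0.28 for RN7SL1, 0.71 and 0.45 for RN7SL2, and 0.56 and 0.54 for RN7SK in RD and JR1, and those of RMRP (-0.08 and -0.13) and RPPH1 (-0.04 and -0.18) were smaller than as deposited.

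A denominator without the members gave a further view. Relative to the summed TPM of the genes outside a set of 3002 short structural RNA genes, the change of RN7SL1 came to 0.70 (RD) and 0.33 (JR1), that of RN7SL2 to 0.86 and 0.50, and that of RN7SK to 0.71 and 0.59. RN7SL1, RN7SL2 and RN7SK were thus higher with shSKP2 in both lines under each scaling applied. Every denominator applied was lower with shSKP2 in both lines, so a change above 0 could only become larger. This agreement is therefore no separate check of the direction. RMRP had changes of 0.08 (RD) and -0.08 (JR1) on this scale and RPPH1 0.11 and -0.13, so that the direction of both RNAs depended on the scaling, and relative to the geometric mean of 14 housekeeping genes both were higher in both lines.

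**Figure D2:**
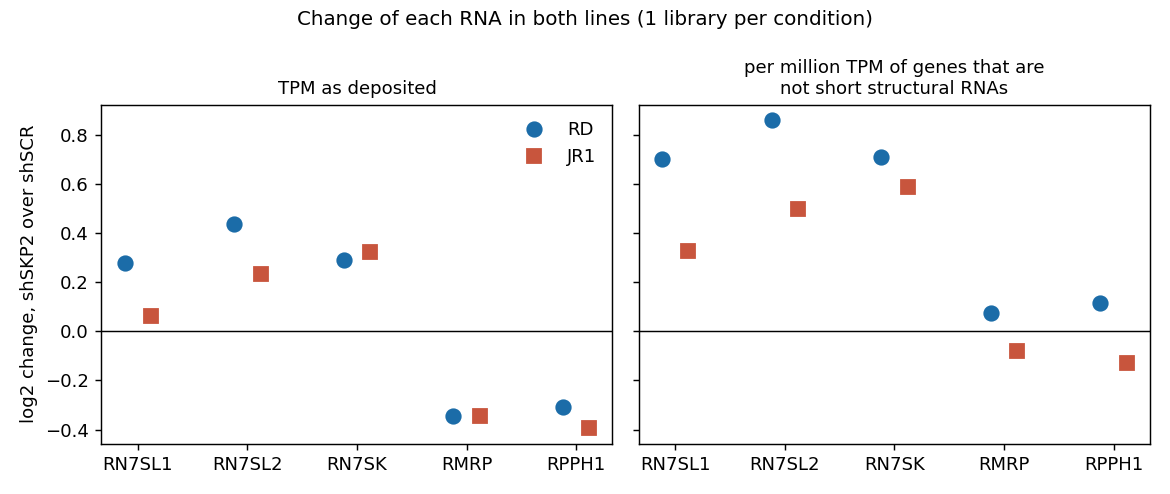
Points give the log2 change of each RNA with shSKP2 over shSCR (vertical axis) in RD (circles) and JR1 (squares), from 1 library per condition with no error bar, as deposited on the left and relative to the sum of genes that are not short structural RNAs on the right. RN7SL1, RN7SL2 and RN7SK lie above 0 in both panels, and RMRP and RPPH1 lie at -0.31 to -0.39 on the left and on either side of 0 on the right.

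Ratios between the RNAs within a library do not depend on the total. RPPH1 was 0.334 of RN7SK in RD shSCR and 0.221 in RD shSKP2, and 0.346 and 0.211 in JR1. RMRP was 0.162 and 0.104 of RN7SK in RD and 0.114 and 0.0722 in JR1. Both RNase RNAs were therefore lower against 7SK with shSKP2 in both lines, by a fold of 0.662 and 0.609 for RPPH1 and 0.644 and 0.631 for RMRP. Against the sum of RN7SL1 and RN7SL2 the folds were 0.640 and 0.694 for RPPH1 and 0.622 and 0.719 for RMRP. These contrasts within the group hold whatever the scaling, but each rests on a single pair of libraries per line.

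The ratio of RMRP to RPPH1 separated the lines more than the shRNAs, with 0.484 and 0.471 in RD and 0.330 and 0.342 in JR1 (shSCR and shSKP2). RN7SL1 was 1.77 times RN7SL2 in RD shSCR, 1.59 times in RD shSKP2, 1.54 times in JR1 shSCR and 1.37 times in JR1 shSKP2. This ratio was lower with shSKP2 in each line, by folds of 0.896 and 0.890, and lower in JR1 than in RD at the same shRNA, with the uncertainty of the split noted above. RN7SK against the 7SL sum had no common direction, at 0.555 and 0.537 in RD and 0.596 and 0.680 in JR1.

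**Figure D3:**
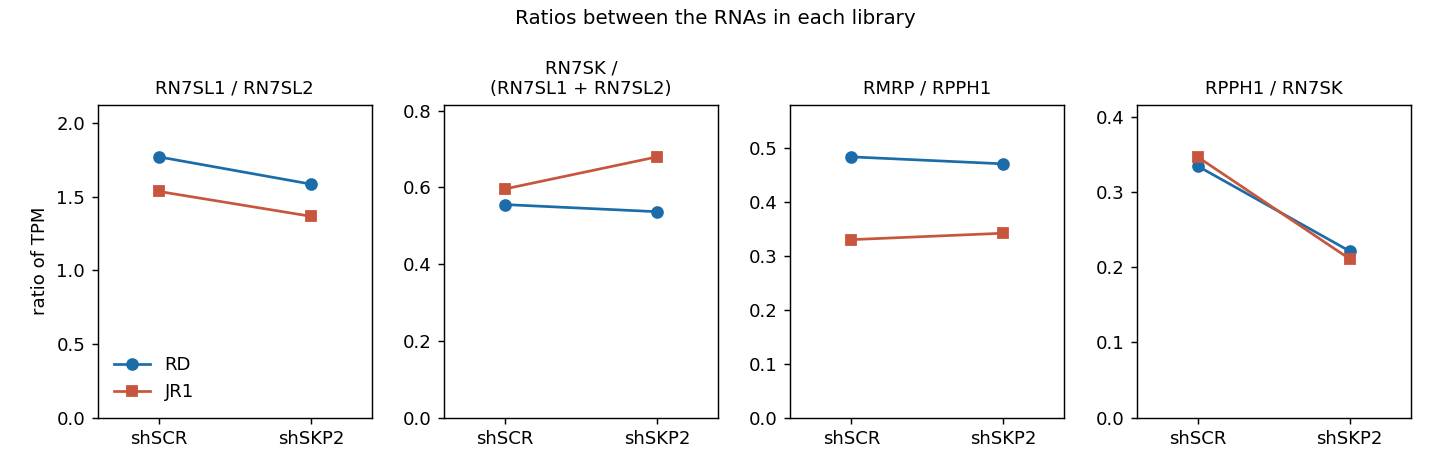
Each panel plots a ratio of TPM (vertical axis, from 0) for shSCR and shSKP2 (horizontal axis) in RD (circles) and JR1 (squares), with 1 library per point and a line joining the libraries of a cell line. The ratio of RPPH1 to RN7SK is lower with shSKP2 in both lines (0.334 to 0.221 and 0.346 to 0.211), and that of RMRP to RPPH1 lies at 0.471 to 0.484 in RD and 0.330 to 0.342 in JR1.

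The lines differed modestly at the same shRNA. The log2 difference of RD over JR1 was -0.25 with shSCR and -0.29 with shSKP2 for RN7SK, -0.28 and -0.07 for RN7SL2, and -0.30 and -0.22 for RPPH1. All were lower in RD under each scaling applied. Every denominator applied was higher in RD than in JR1 at the same shRNA, so a lower value in RD could only become lower. The agreement across scalings is therefore no separate check of this direction. RMRP was higher in RD as deposited, by 0.25 and 0.24, but lower with shSCR relative to the sum of genes that are not short structural RNAs. RN7SL1 differed by -0.07 with shSCR and 0.14 with shSKP2, and the latter changed sign when centred on the median of all tested genes.

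RN7SL3, BCYRN1 and the pseudogene RN7SL832P were the only Pol III genes above 0 besides the 5 members, of 450 Pol III genes recognized by symbol. RN7SL3 was at 391 TPM in RD shSCR and at 26.8, 53.8 and 41.1 TPM in RD shSKP2, JR1 shSCR and JR1 shSKP2, which is 0.127% of the 7SL sum in the first library and 0.00690% to 0.0157% in the others. Its value in RD shSCR thus stood apart, and its change of -3.82 in RD, against -0.38 in JR1, shares the uncertainty of the split. BCYRN1, a brain cytoplasmic RNA of 200 bases related to the Alu part of 7SL, was at 127 TPM in RD shSCR, 196 in RD shSKP2, 221 in JR1 shSCR and 170 in JR1 shSKP2, with changes of 0.62 and -0.38.

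The remaining 442 Pol III genes were listed at 0 in all 4 libraries. They comprised 411 transfer RNA genes, 17 copies of the 5S ribosomal RNA gene, the Y RNAs RNY1, RNY3, RNY4 and RNY5, the vault RNAs and the U6 and U6atac genes of the list, and their annotated lengths ran from 71 to 125 bases with a median of 73. Length marked the same border outside Pol III. The shortest short structural RNAs above 0, SNORA37 among them, spanned 129 bases, and all 2877 genes of any kind below that length were listed at 0. From 129 to 150 bases 64 of 176 short structural RNA genes were above 0, from 151 to 200 bases 28 of 49, and from 201 to 500 bases, where the 5 members fall, 32 of 40. A listing at 0 below this length is therefore no evidence that transfer RNAs or 5S RNA were absent, and the members' place as the highest Pol III RNAs holds among the lengths that received values. What set this border was not tested.

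**Figure D4:**
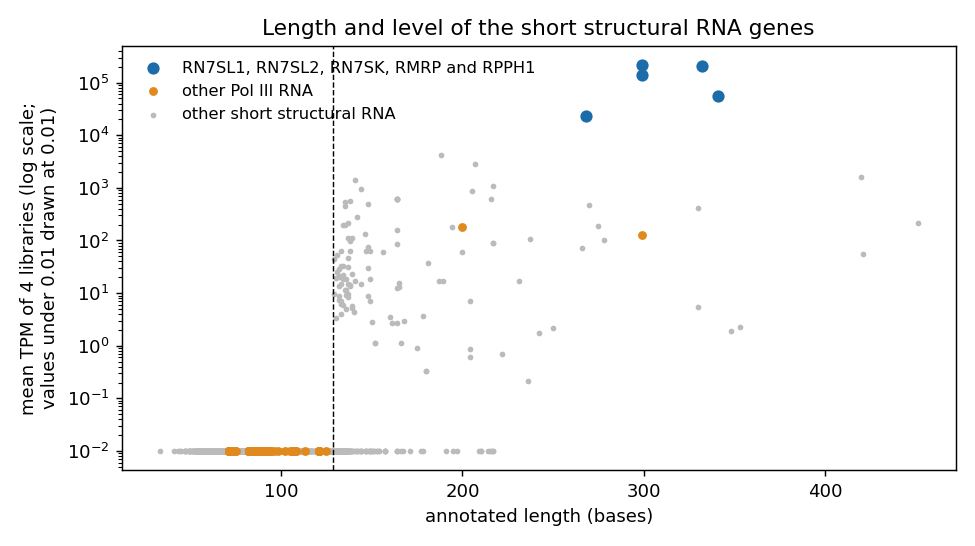
Each point is a short structural RNA gene, placed by annotated length (bases, horizontal axis) and mean TPM of the 4 libraries (vertical log axis, values under 0.01 drawn at 0.01), and the dashed line marks the shortest length above 0. The 5 RNAs lie at 268 to 341 bases at the top, and no gene left of the line at 129 bases is above 0.

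The SRP proteins, partners of 7SL, showed no common direction. Of 8 genes tested, 2 were higher and 6 lower with shSKP2 in RD, and 4 were higher and 4 lower in JR1, and none was called. Their median change was -0.17 in RD and -0.04 in JR1, beside -0.27 and -0.21 for all tested genes. SRP14, which with SRP9 binds the Alu part of 7SL, had the highest change, at 38.9 TPM in RD shSCR, 57.5 in RD shSKP2, 27.6 in JR1 shSCR and 55.6 in JR1 shSKP2, a change of 0.55 and 0.99, of which the latter passed the limit of 1 when centred on the median of all tested genes (1.20). SRP9 was at 102, 72.8, 78.4 and 71.8 TPM, with changes of -0.48 (the lowest of the list in RD) and -0.13. SRP54, the GTPase that recognizes the signal sequence, had the lowest change in JR1 (-0.35), and the receptor subunit SRPRB was at 19.2 to 23.0 TPM in all libraries.

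Of the 7 genes of the 7SK particle and P-TEFb, 5 were higher and 2 lower in RD, 3 were higher and 4 lower in JR1, and none was called, with median changes of 0.11 and -0.01 beside the -0.27 and -0.21 of all tested genes. CDK9, the kinase that 7SK restrains, was at 48.4 TPM in RD shSCR, 29.2 in RD shSKP2, 42.2 in JR1 shSCR and 24.6 in JR1 shSKP2, the lowest change of the list in both lines (-0.71 and -0.76). CCNT1, a cyclin partner of CDK9, was at 10.3, 11.5, 11.1 and 12.7 TPM. HEXIM1, the inhibitor that acts through 7SK, was at 17.5 and 22.1 TPM in RD and at 13.3 and 13.2 TPM in JR1, and the capping enzyme MEPCE was at 59.7 and 64.5 TPM in RD and 103 and 113 TPM in JR1. LARP7, which stabilizes 7SK, was at 13.0 and 10.6 TPM in RD and at 10.3 and 9.68 TPM in JR1.

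Of 10 tested genes for proteins of RNase P and RNase MRP, 2 were higher and 8 lower in RD, and 3 were higher and 7 lower in JR1, with median changes of -0.44 and -0.10. Of all tested genes 75.0% and 68.9% were lower, with medians of -0.27 and -0.21, so the counts of this list lay near the background. RPP25L was called down in both lines, at 14.9 TPM in RD shSCR, 6.75 in RD shSKP2, 14.5 in JR1 shSCR and 5.78 in JR1 shSKP2 (-1.04 and -1.19), but centred on the median of all tested genes its changes were -0.77 and -0.98 and neither was called. POP5 was at 14.6 and 8.43 TPM in RD and 22.8 and 11.2 TPM in JR1. The scaffold subunit POP1 went the other way, at 4.67 and 8.15 TPM in RD and 3.42 and 4.71 TPM in JR1, the highest change of the list in both lines (0.69 and 0.37). RPP25, a relative of RPP25L, did not reach the mean of 1 TPM, with 0.22 to 0.60 TPM.

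The genes that make and handle Pol III transcripts were mostly lower with shSKP2, as were most tested genes. Of 18 Pol III subunit genes 14 had a lower level in RD and 12 in JR1, with medians of -0.20 and -0.14 and no call. The interchangeable subunits POLR3G and POLR3GL differed in change. POLR3G had the highest change of the list in both lines, at low levels (1.64 and 2.42 TPM in RD, 1.77 and 3.49 in JR1). POLR3GL had the lowest change in RD (8.64 and 4.64 TPM), and its level was above that of POLR3G in every library. Of 19 genes for Pol III transcription factors and the repressor MAF1, 17 had a lower level in RD and 14 in JR1, with medians of -0.32 and -0.34. SNAPC3, a subunit of the complex that binds upstream of genes such as RN7SK, RMRP and RPPH1, was called down in both lines, with 5.37 and 1.71 TPM in RD and 4.21 and 1.3 TPM in JR1 (-1.23 and -1.18), and both calls were lost when centred on that median (-0.96 and -0.97). In the same complex SNAPC4 was at 22.8 and 24.1 TPM in RD and 20.8 and 16.0 TPM in JR1. Of 10 genes for binding and processing of Pol III transcripts 9 had a lower level in RD and 7 in JR1, including SSB, the La protein that holds the U-rich end of new Pol III transcripts, at 77.5 and 53.5 TPM in RD and 66.8 and 36.2 TPM in JR1, while RO60 was higher in both (0.58 and 0.47). With the members removed and the TPM rescaled, 8 of the 12 median changes of these 6 lists in the 2 lines changed sign, so that the direction of a list's median is not given apart from the scaling.

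**Figure D5:**
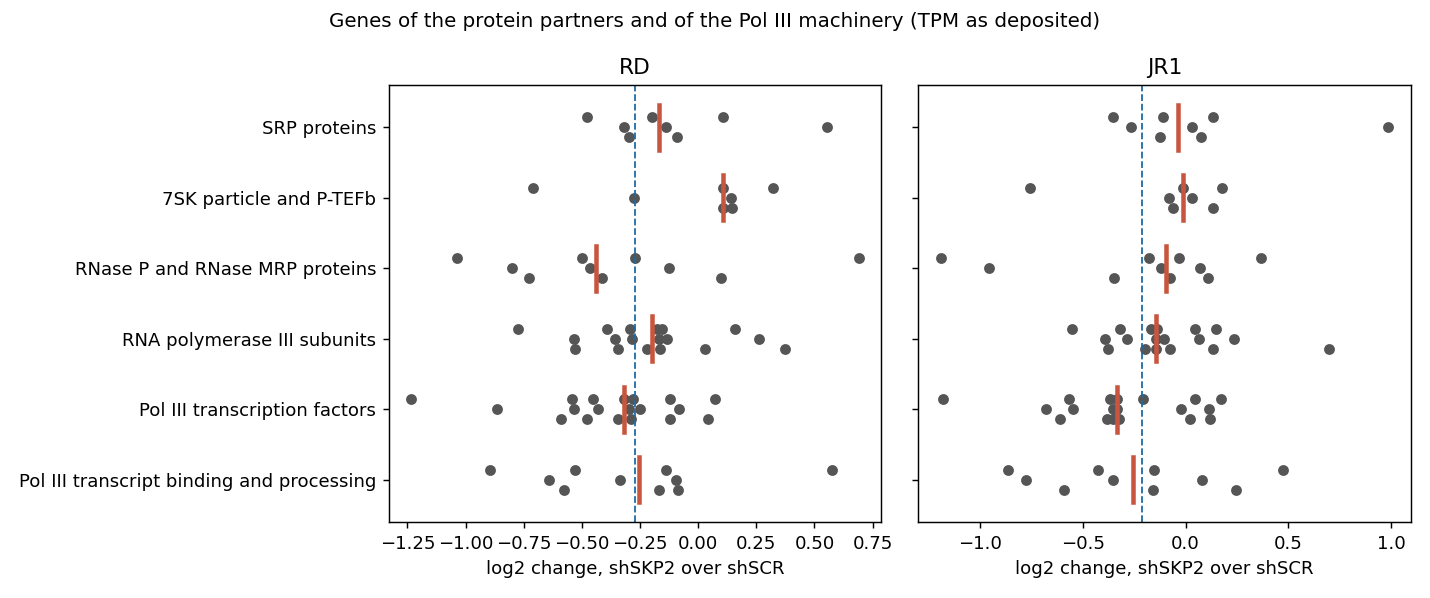
Points are tested genes of 6 lists (rows) placed by their log2 change with shSKP2 over shSCR as deposited (horizontal axis) in RD (left) and JR1 (right), with the vertical offset of points only for legibility, the thick bar at each list's median and the dashed line at the median of all tested genes (-0.27 and -0.21). The lowest points are SNAPC3 in RD (-1.23) and RPP25L in JR1 (-1.19).

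Other RNAs without a poly-A tail were set beside the members as a description. Their values do not separate differences in library preparation from differences between the cells. The replication-dependent histone genes were lower with shSKP2 in both lines, for 62 of 62 tested genes, and summed to 27047 TPM in RD shSCR, 9092 in RD shSKP2, 8551 in JR1 shSCR and 3133 in JR1 shSKP2. The paper reported a lower share of S-phase cells in both lines after siRNA knockdown of SKP2. The relation of that result to these histone values was not tested. Small nucleolar and Cajal body RNAs summed to 12344, 14508, 14764 and 11752 TPM, higher with shSKP2 in RD and lower in JR1 as deposited. Their median change in JR1 was -0.13 as deposited and 0.084 when centred on the median of all tested genes. Of 90 tested genes of this class, 47 were higher and 26 lower in RD, and 30 were higher and 50 lower in JR1. Many of them were listed at 0 in some libraries and above 0 in others, so the median rests in part on such values. The Pol II small nuclear RNAs followed the same split as deposited, with median changes of 0.20 in RD and -0.34 in JR1. With the members removed and the TPM rescaled the JR1 median was -0.064. Both medians as deposited were the value of several U1 entries with identical TPM, while RNU2-1 changed by -0.02 in RD and -0.74 in JR1. Ribosomal RNA genes summed to 34.1, 842, 44.3 and 17.7 TPM. TERC, the telomerase RNA, was lower in both lines as deposited, at 268, 184, 241 and 167 TPM, with changes (-0.54 and -0.53) nearer to those of RMRP and RPPH1 than to those of RN7SK. As deposited, these RNAs thus differed among themselves in direction, and the part of poly-A selection in the members' levels was not tested.

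Neighbouring genes had levels far under those of the members. RN7SL1 lies within the span of RPS29, on the other strand and between its exons in GENCODE release 44, and RPS29 was at 441, 358, 457 and 356 TPM in RD shSCR, RD shSKP2, JR1 shSCR and JR1 shSKP2. GSTA4, a glutathione transferase gene 288 bases from RN7SK, was lower with shSKP2 in both lines, at 23.6 and 8.08 TPM in RD and 25.1 and 6.23 TPM in JR1 (-1.44 and -1.85), where RN7SK was higher. In the deposited tables RPPH1 overlaps the span of PARP2 on the other strand, and PARP2 was at 12.2 and 7.86 TPM in RD and 9.71 and 5.95 TPM in JR1. CCDC107, 274 bases from RMRP, was at 6.39 to 7.44 TPM in all 4 libraries. In the same GENCODE release, exons of lncRNA genes on the same strand cover RN7SL2 and RPPH1, so that their reads cannot be told apart by strand. LOC105378179, which overlaps RN7SL2 in the deposited tables, was at 0.40 to 0.57 TPM.

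Among 6204 other genes averaging 10 TPM or more, the pattern nearest to that of the summed members over the 4 libraries, by root mean square difference of centred log2(TPM + 1), was that of FLNC, the muscle filamin, at 0.0226, with 123, 144, 134 and 153 TPM. SUPV3L1, a mitochondrial RNA helicase, RNF114, ZDHHC18 and SDCBP followed at 0.0322 to 0.0345. With 4 points per gene and 6204 candidates, such likeness is a description.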

How the data were processed

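RNA of each line and shRNA, 1 library each, was selected for poly-A, made into directional libraries and read as pairs of 150 bases. The authors aligned reads to GRCh38 with STAR (2.7.9a) and ran RSEM (1.3.2), and the deposited TPM are per gene with 2 decimals; the annotation release is not given in the sources used here. RSEM divides by effective length, so a share of TPM is not a share of reads, and short RNAs weigh more. The deposited TPM were used as they stand. Changes were log2 of (TPM + 1) ratios within a line, a gene was tested if it averaged 1 TPM or more across libraries and called at a change of 1. With 1 library per group no test was run: a fit over both lines with the line as a block would leave 1 residual degree of freedom, and the members were chosen on these values. Depth and precision cannot be given.

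The 5 members, the lists and the alternatives were chosen with earlier results of these data known. Named genes are the members, RN7SL3, tested genes of the partner lists, the extremes of other lists, neighbours, SKP2, the 5 genes nearest in pattern and the listed cell type markers; of the partner lists only some are given values, and RPP25 (under the minimum), BCYRN1, RN7SL832P, SNORA37, RNU2-1, TERC and the genes named beside an extreme (POLR3GL, SNAPC4, SSB in RD) were added after their values were seen. Short structural RNA genes (3002) were recognized by symbol and annotation. Upstream sequences came from the GRCh38 reference at the positions of the deposited tables, promoters from RefSeq, and overlaps and lengths from GENCODE release 44. The sequences of the 7SL copies are not reported here. The computation was tested on simulated data. Python 3.11.15, numpy 2.4.6, pandas 2.3.3 and matplotlib 3.10.9 were used.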

Additional observations from a re-analysis of the deposited data

Results flagged for a closer look

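The change of BCYRN1 had opposite signs, 0.62 (RD) and -0.38 (JR1), with a difference of 1.00 that was not tested. The summed ribosomal RNA genes, also without a poly-A tail, were at 34.1 TPM in RD shSCR, 842 in RD shSKP2, 44.3 in JR1 shSCR and 17.7 in JR1 shSKP2, log2 ratios of 4.63 and -1.32 with a difference of 5.95 that was not tested.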

How the results depend on the processing

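No paired analysis was run. Each group held 1 library, and the lines as blocks would leave 1 residual degree of freedom. For the members, shares and gene counts, a value is given here where it changed sign or moved by more than 1.5-fold. The direction of RN7SL1, RN7SL2, RN7SK and the summed members with shSKP2 was the same under all alternatives. For the scalings this is no separate check, since each denominator was lower with shSKP2. Relative to the housekeeping genes the changes of these RNAs and of the summed members in RD were 0.90, 1.06, 0.91 and 0.86. RMRP and RPPH1 had changes in RD of 0.075 and 0.11 relative to the sum of genes that are not short structural RNAs, of 0.037 and 0.076 relative to the sum of all genes other than the members, a denominator chosen after seeing the data, and of 0.27 and 0.31 relative to the housekeeping genes, where those in JR1 were 0.14 and 0.088. RMRP in RD over JR1 with shSCR was -0.058 relative to the sum of genes that are not short structural RNAs and -0.095 relative to the housekeeping genes, and RN7SL1 with shSKP2 was -0.032 when centred, -0.0065 and -0.065 in the same order of denominators. Weighted by length, the members' shares were 14.1% and 19.6% in RD and 18.3% and 22.4% in JR1.

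Of the 12 median changes of the 6 protein gene lists, none moved by more than 1.5-fold, but 7 changed sign when centred (range -0.17 to 0.38), 8 with the members removed (-0.12 to 0.49) and 9 without short structural RNA genes (-0.13 to 0.53). Genes called up and down in RD were 627 and 565 with the members removed, 669 and 525 without short structural RNA genes, 272 and 458 when centred and 416 and 3011 at a limit of 1.5-fold, and in JR1 743 and 1130, 747 and 1140, 388 and 710, and 689 and 3041. Genes called up numbered 279 in RD and 378 in JR1 with 0.1 TPM added, and 87 and 143 at a minimum mean of 5 TPM. Rescaling also raised the tested genes from 12985 to 15177 with the members removed and to 15218 without short structural RNA genes, so these counts are over different genes. Up calls were 12.8% of called genes in RD and 16.4% in JR1 as deposited, and 52.6% and 39.7% with the members removed. The alternative without mitochondrially encoded genes was not run, because the tables used here list 0 such genes. The unknown depth limits every value.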
